A study of Homo sapiens with 6 samples.

Results

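The 2 island lists described here are those of H3K4me3 and H3K27me3 in the endothelial cells labelled Vc-, set against each other within the same condition. An island is a stretch of neighbouring windows in which the antibody's reads were enriched. All islands of the 2 lists on chromosomes 1 to 22 were taken, 21583 for H3K4me3 and 8893 for H3K27me3, which gives 30476 of the 61321 islands in the series' 4 lists. The cells were endothelial cells derived in culture from H1, an established human embryonic stem cell line that the labels give as both line and genotype. They were GATA2+, and GATA2 encodes a zinc finger factor needed for endothelium to give rise to blood. Vc is vitamin C in the series title, and Vc- and Vc+ name cells derived without and with it. The same 2 marks in the Vc+ cells are given beside some values below. Each condition also had an input sample, which was not used here.

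Some of the sources disagree with each other. Going by file names, the conditions of all 4 lists would be exchanged, and the library labelled Vc- is meant wherever Vc- is written. A swap of this kind would exchange both marks together, so it would rename the pair and leave the comparison of the marks as it is. A GATA2/eGFP reporter, with positive and negative cells, appears in the design text alone, whereas each label says GATA2+ and none names a reporter allele. The labelled protocol names H3K27me3 antibodies only, whereas the antibody field names both marks. Each mark had 1 library in this condition, so there was no replicate, no spread and no test, and the values below describe these 2 libraries. Intervals are exact Clopper-Pearson intervals at 95% and cover counting error only. Read depth is not given in the sources used here, and a mark that was not called may be present below what each library could detect.

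H3K4me3, trimethylation of lysine 4 of histone H3, is laid down by SET1 and MLL family enzymes and marks promoters that are active or ready to be used. H3K27me3 is laid down by Polycomb repressive complex 2 (PRC2) and marks silenced genes, above all those of transcription factors that direct development. Promoters that hold both marks are called bivalent, were first described in embryonic stem cells, and tend to be rich in CpG dinucleotides. Marks called in a population of cells may lie on the same nucleosomes or in different cells, and chromatin immunoprecipitation for 1 mark at a time cannot tell these apart.

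The promoters below are shown because they stand for the classes that the results describe. Each is the 250 bases before the listed start of transcription on the gene's own strand, 5′ to 3′, from the RefSeq promoter table of build GRCh38.p14, with every CG dinucleotide in capitals. GATA2 (chr3:128493202-128493451, minus strand) and RUNX1 (chr21:34888700-34888949, minus strand), a factor needed for blood cells to arise from endothelium, held both marks within 1 kb of these starts. HOXC4 and HOXC5 share 1 listed start (chr12:54016638-54016887, plus strand) and also held both. MEIS1 (chr2:66434875-66435124, plus strand), a HOX cofactor, and GATA6 (chr18:22169339-22169588, plus strand), a factor of endoderm and heart, held H3K4me3 alone. HOXA10 (chr7:27179862-27180111, minus strand), a body axis gene, and the read-through gene HOXA10-HOXA9 (chr7:27180240-27180489, minus strand) held H3K27me3 alone. The RUNX1 promoter was added after its values were seen.
GATA2, both marks: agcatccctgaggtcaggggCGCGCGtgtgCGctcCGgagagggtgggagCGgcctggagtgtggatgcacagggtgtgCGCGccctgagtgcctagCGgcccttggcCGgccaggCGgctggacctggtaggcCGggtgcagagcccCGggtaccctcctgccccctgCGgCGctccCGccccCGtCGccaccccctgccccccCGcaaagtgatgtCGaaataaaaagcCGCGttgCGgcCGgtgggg
RUNX1, both marks: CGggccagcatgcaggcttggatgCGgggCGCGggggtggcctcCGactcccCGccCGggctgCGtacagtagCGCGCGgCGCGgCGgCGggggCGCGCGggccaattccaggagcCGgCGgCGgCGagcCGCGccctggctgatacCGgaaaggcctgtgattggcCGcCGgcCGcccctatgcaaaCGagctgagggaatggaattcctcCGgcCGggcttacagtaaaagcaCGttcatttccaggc
HOXC4 and HOXC5, both marks: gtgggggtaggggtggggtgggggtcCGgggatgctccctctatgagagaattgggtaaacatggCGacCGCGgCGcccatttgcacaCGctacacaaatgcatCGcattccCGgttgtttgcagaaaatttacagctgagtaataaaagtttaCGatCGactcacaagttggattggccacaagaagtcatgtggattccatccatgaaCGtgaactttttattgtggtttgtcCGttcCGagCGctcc
MEIS1, H3K4me3 alone: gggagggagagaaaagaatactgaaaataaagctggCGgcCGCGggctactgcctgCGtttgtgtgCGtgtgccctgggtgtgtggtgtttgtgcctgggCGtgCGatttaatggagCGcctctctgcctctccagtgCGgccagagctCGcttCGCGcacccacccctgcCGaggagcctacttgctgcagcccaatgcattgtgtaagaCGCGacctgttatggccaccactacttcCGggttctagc
GATA6, H3K4me3 alone: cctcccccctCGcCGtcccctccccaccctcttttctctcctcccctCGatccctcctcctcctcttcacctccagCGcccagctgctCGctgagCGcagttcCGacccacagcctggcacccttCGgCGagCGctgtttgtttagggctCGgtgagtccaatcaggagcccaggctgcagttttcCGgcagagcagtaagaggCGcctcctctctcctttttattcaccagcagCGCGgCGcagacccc
HOXA10, H3K27me3 alone: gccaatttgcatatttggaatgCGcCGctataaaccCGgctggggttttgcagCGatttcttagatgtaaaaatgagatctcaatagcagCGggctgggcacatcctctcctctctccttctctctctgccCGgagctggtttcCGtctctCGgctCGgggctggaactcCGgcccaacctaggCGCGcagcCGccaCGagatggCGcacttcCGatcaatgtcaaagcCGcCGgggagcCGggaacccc
HOXA10-HOXA9, H3K27me3 alone: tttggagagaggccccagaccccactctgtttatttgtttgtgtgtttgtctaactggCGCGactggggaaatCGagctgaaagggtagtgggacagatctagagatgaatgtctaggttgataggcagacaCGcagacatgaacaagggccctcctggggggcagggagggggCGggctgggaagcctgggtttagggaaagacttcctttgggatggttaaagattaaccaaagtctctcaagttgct
The 250 bases shown hold 24 CG for GATA2, 32 for RUNX1, 14 for HOXC4, 16 for MEIS1, 16 for GATA6, 19 for HOXA10 and 5 for HOXA10-HOXA9.

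The marks covered nearly equal lengths of the genome in differently shaped pieces. H3K4me3 islands covered 42 Mb and H3K27me3 islands 40.2 Mb, or 1.5% and 1.43% of the 2805 Mb spanned by chromosomes 1 to 22. The median H3K4me3 island was 1.6 kb wide (quartiles 1 and 2.4 kb) and the median H3K27me3 island 3.2 kb (quartiles 2.2 and 5 kb). Islands of 10 kb or more numbered 35 for H3K4me3, with 1.78% of its length, and 548 for H3K27me3, with 26.4% of its length. The 2 marks shared 7.2 Mb, or 36007 windows of 200 bp in 5029 stretches. That was 17.1% of the H3K4me3 length and 17.9% of the H3K27me3 length, with a Jaccard index (shared length over joint length) of 0.096. In the Vc+ pair the shared length was 9.43 Mb, 20.1% and 18.5% of the 2 marks.

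Seen from the islands, the relation was one-sided. Of the 21583 H3K4me3 islands, 4921 touched an H3K27me3 island by at least 1 bp (22.8%, interval 22.2 to 23.4%), and of the 8893 H3K27me3 islands 4084 touched H3K4me3 (45.9%, interval 44.9 to 47%). A touching H3K4me3 island usually lay inside the other mark: 3507 of the 4921 (71.3%) were covered from end to end. A touching H3K27me3 island was covered end to end in 104 of 4084 cases (2.55%), and the median share covered was 30.6%. The Vc+ pair gave 25.3% and 46.1% touching. H3K4me3 islands that did not touch were usually far from the other mark, at a median of 138 kb, and 8.35% of them lay within 10 kb of it. H3K27me3 islands that did not touch lay at a median of 28.6 kb from H3K4me3, and 28.6% of them within 10 kb.

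Among 3341 pairs in which 1 island of each mark touched and neither touched another, H3K4me3 lay inside H3K27me3 in 2243 (67.1%), H3K27me3 lay inside H3K4me3 in 74 (2.21%) and the 2 were staggered in 1024 (30.6%). In the nested pairs a median H3K4me3 island of 1.2 kb filled 28.1% of an H3K27me3 island of 4.6 kb. H3K27me3 ran on beyond both edges of H3K4me3 in 1975 of the 2243 nested pairs (88.1%), by a median of 2.2 kb on the longer side and 1 kb on the shorter. H3K27me3 covered 82.6% of the positions just outside the edges of touching H3K4me3 islands, 65.5% at 1 kb, 45.4% at 2 kb and 17.3% at 10 kb. Counted over all H3K4me3 islands it covered 19% just outside the edge and 5.3% at 10 kb. An island of H3K27me3 could hold several of the other mark: 585 touched 2 or more H3K4me3 islands, up to 20 in 1 case, while 107 H3K4me3 islands touched 2 or more of H3K27me3. A smaller group of 82 H3K4me3 islands touched none but had H3K27me3 within 5 kb on each side. The 5 widest of these lay at an end of AUTS2, EGR3, DTX3 with ARHGEF25, PCGF1 and MSX2.

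Width went with touching in opposite directions for the 2 marks. H3K4me3 islands that touched were narrower than those apart, with medians of 1.4 kb and 1.8 kb, and H3K27me3 islands that touched were wider, with medians of 4 kb and 2.8 kb. The share of H3K27me3 islands that touched H3K4me3 was 24.3% up to 1 kb, 47.5% from 3 to 5 kb, 67.6% from 5 to 10 kb and 83.9% above 10 kb. The share of H3K4me3 islands that touched H3K27me3 was 28.4% up to 1 kb and 12.7% from 3 to 5 kb. A wide island can touch by its length alone, and that part of the H3K27me3 trend was not tested. Above 10 kb the H3K4me3 share was 67.6%, over 34 islands. Several of these lay in DNA without protein-coding genes. With islands left out that lay up to 5 Mb from the longest stretch without genes of their chromosome, the share was 50%, or 9 of 18.

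**Figure D1:**
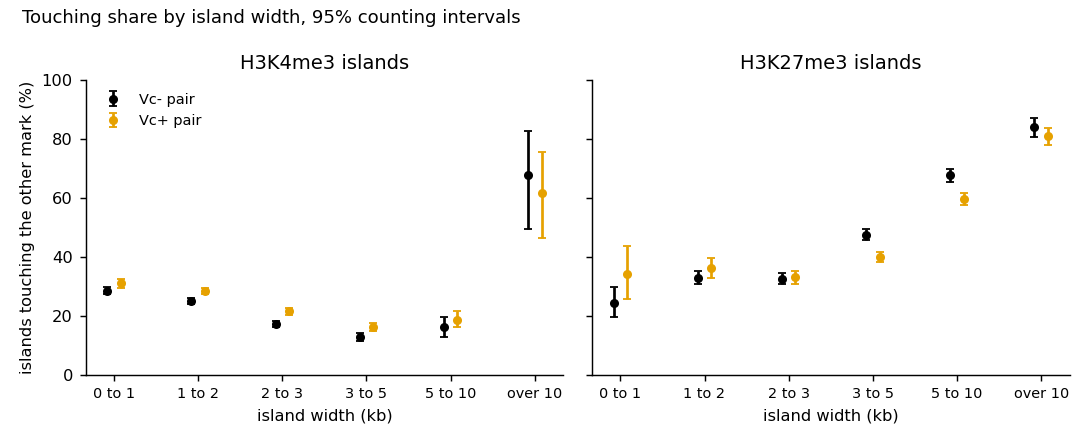
Share of islands that touch the other mark (vertical axis, %) by island width (horizontal axis, kb) for H3K4me3 (left) and H3K27me3 (right), with Vc- in black, Vc+ in orange and bars for exact 95% counting intervals. The Vc- points run from 24.3% to 83.9% for H3K27me3, whereas those of H3K4me3 run from 28.4% down to 12.7% at 3 to 5 kb and stand at 67.6% over the 34 islands above 10 kb.

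Where the islands lay differed with the other mark. An island was placed at a gene when it came within 1 kb of either end of a protein-coding gene. H3K27me3 islands that touched H3K4me3 were at such an end in 58.6% of cases, and those apart from it in 8.21%. Of the H3K27me3 islands apart, 71.4% lay neither within 1 kb of an end of any gene nor inside a protein-coding gene. Some of these may lie inside non-coding genes, which were not counted as bodies. Of all 8893 H3K27me3 islands, 3172 lay up to 5 Mb from the longest stretch without genes of their chromosome. Their part in the 71.4% was not counted. H3K4me3 islands were at a gene end in 49.6% of cases when they touched and 59.4% when they did not. The authors' island score, a −log10 false discovery rate that also grows with depth and width and is therefore read only within a list, had a median of 37.3 for touching H3K4me3 islands and 91.9 for those apart. For H3K27me3 the order was the other way, 27.8 touching and 5.5 apart. Islands that touched were thus the lower-scoring of the H3K4me3 list and the higher-scoring of the H3K27me3 list.

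The widest shared stretches were not at regulatory genes. They lay on chromosome 10 at 41843001 to 41916400 (73.4 kb), chromosome 1 at 143210201 to 143276200 (66 kb), chromosome 4 at 49091001 to 49156600 (65.4 kb shared), chromosome 10 at 42066201 to 42105600 (39.4 kb) and, as islands of 27.4 to 30.4 kb, on the short arm of chromosome 21. None of these has a protein-coding gene at its ends. A further stretch of 40.2 kb on chromosome 1 ended at RHOU, which encodes a small GTPase. Islands up to 5 Mb from the longest stretch without genes of their chromosome held 22.6% of the shared length, against 9.94% of the H3K4me3 length and 31.1% of the H3K27me3 length. By chromosome, the shared portion of H3K4me3 ranged from 9.2% on chromosome 19 to 41.2% on chromosome 21, with a median of 17.2%. No input or mappability value was analysed here, and their part in these stretches was not tested.

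Of the 19126 protein-coding genes on chromosomes 1 to 22, 2628 (13.7%, interval 13.3 to 14.2%) held both marks, 10922 (57.1%) held H3K4me3 alone, 373 (1.95%) held H3K27me3 alone and 5203 (27.2%) held neither. H3K4me3 was thus present at 87.6% of the 3001 genes with H3K27me3, and H3K27me3 at 19.4% of the 13550 genes with H3K4me3 and 6.69% of those without. Of the genes with both, 2504 (95.3%) had them at the same end and 2402 (91.4%) had islands that overlapped each other in the window. As a check of coordinates, moving all gene ends by 100 kb left 2245 genes with H3K4me3 and 881 with H3K27me3. The class was shared with the Vc+ pair for 90.4% of genes with both marks, 94.6% with H3K4me3 alone and 55.2% with H3K27me3 alone. Of the 373 genes with H3K27me3 alone, 104 held both marks in the Vc+ pair.

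The line between both marks and H3K27me3 alone depended on how weak an H3K4me3 island was allowed to be. The better-scoring part of each list was kept alone, at or above its median score (73.1 for H3K4me3 and 10 for H3K27me3). Genes with both then numbered 1086 and genes with H3K27me3 alone 1585. With a score of at least 10 in both lists they were 2324 and 348. By construction the first cut removes low-scoring H3K4me3, and the median H3K4me3 score at genes with both marks, 70.4, lay below it. Of the 373 genes with H3K27me3 alone, 167 had H3K4me3 within 5 kb of a gene end and 162 had none within 10 kb. The word both therefore covers narrow H3K4me3 of low score as well as wide H3K4me3 of high score, and the gene groups below differ in which of these they hold.

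Of the lists by name, neural ectoderm factors had the highest share with both marks, mostly as narrow H3K4me3 and wide H3K27me3. Of 24 neural ectoderm factors, 23 held both and 1, the neuronal factor NEUROD1, held H3K27me3 alone, against 13.7% with both over all protein-coding genes. Their H3K27me3 islands had a median width of 28 kb and their H3K4me3 islands of 1.8 kb. At PAX6, the regulator of eye and forebrain (chromosome 11), H3K27me3 covered 31793601 to 31834400 (40.8 kb, score 1000) and H3K4me3 1.2 kb within it (31817001 to 31818200, score 6.13). SOX2, a factor of neural and pluripotent cells, had 40.2 kb of H3K27me3 around 1.6 kb of H3K4me3. The H3K4me3 score at the 23 genes ran from 6.13 to 183 with a median of 35.3, against 70.4 over all genes with both marks and 150 over genes with H3K4me3 alone. In the better-scoring part of each list, 4 of the 24 held both and 20 held H3K27me3 alone.

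Endoderm factors held both marks at 10 of 14, with median widths of 24 kb for H3K27me3 and 2.2 kb for H3K4me3. Over all protein-coding genes, 13.7% held both marks, 1.95% H3K27me3 alone and 57.1% H3K4me3 alone. FOXA2 had 36.4 kb of H3K27me3 and 0.6 kb of H3K4me3, the lung and thyroid factor NKX2-1 had 45.6 kb and 1.4 kb, and the pancreatic factor PDX1 had 21.2 kb and a widest H3K4me3 island of 1 kb. Restricted to better-scoring islands, 2 of the 14 held both and 8 held H3K27me3 alone. Homeobox genes outside the HOX clusters, chosen by family names of their symbols, held both at 78 of 94, H3K27me3 alone at 13 and H3K4me3 alone at 3 (PRRX2, SIX4 and SIX5). LHX9, a factor of limb and gonad, had 25.8 kb of H3K27me3 alone. Forkhead genes held both at 27 of 48 and H3K27me3 alone at 5, namely FOXL3 and FOXD4L3, FOXD4L4, FOXD4L5 and FOXD4L6. The FOXD4 genes are near-identical copies on chromosome 9 between which reads cannot be assigned with certainty.

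The 4 HOX clusters, which set position along the body axis, were not alike. At HOXC, a single H3K27me3 island of 153 kb (chromosome 12, 53916201 to 54069000), the widest of the list, covered the cluster and held 5 H3K4me3 islands of 6.4 kb together. HOXC4, HOXC5, HOXC6 and HOXC9 held both marks, and HOXC8, HOXC10, HOXC11, HOXC12 and HOXC13 held H3K27me3 alone, with H3K4me3 53.1 kb away from HOXC13. In the Vc+ pair HOXC8 and HOXC10 held both marks. At HOXA, an H3K27me3 island of 143 kb (chromosome 7, 27086001 to 27228600) held 20 H3K4me3 islands of 29.8 kb together, and 10 of 11 genes held both, with HOXA10 the exception. At HOXD, islands of 77.2 and 55.8 kb held 12.6 and 6.2 kb of H3K4me3, and 8 of 9 genes held both, with HOXD12 the exception.
HOXB differed from these. Of its 10 genes, HOXB2, HOXB3, HOXB4, HOXB5 and HOXB8 held H3K4me3 alone and 5 held both. The class of HOXB4 hung on the window: 1.05 kb beyond the gene began an H3K27me3 island of 5.2 kb (48579401 to 48584600, score 47.4). It overlapped the 7.6 kb H3K4me3 island of HOXB4. In the Vc+ pair HOXB4 and HOXB8 held both marks. At HOXB1 and HOXB6 the widest islands of the 2 marks did not overlap. H3K4me3 there was wide, with 9 kb across HOXB7 and HOXB8 (chromosome 17, 48607201 to 48616200, score 1000) and 7.8 kb in the island shared by HOXB3, HOXB5 and HOXB6. H3K27me3 at HOXB7 was 4.2 kb with a score of 12.9, and an H3K27me3 island of 34.6 kb reached HOXB13, the far end of the cluster. Over the 39 HOX genes, 27 held both marks (69.2%), 7 H3K27me3 alone (17.9%) and 5 H3K4me3 alone (12.8%). Over all protein-coding genes these shares were 13.7%, 1.95% and 57.1%. With better-scoring islands only, 7 of the HOX genes held both and 27 H3K27me3 alone.

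Longer neighbourhoods repeat this order. The longest runs of neighbouring protein-coding genes with H3K27me3 were 14 genes from SKAP2 to EVX1 around HOXA, 10 from HOXC13 to SMUG1 and 10 from EVX2 to HOXD1. Other wide H3K27me3 islands held CDKN2A and CDKN2B, inhibitors of the cell cycle (chromosome 9, 21961601 to 22012000, 50.4 kb, with 2 and 1.4 kb of H3K4me3 at the 2 genes), and NR2F1, an orphan nuclear receptor (60.2 kb). ZFP37, a zinc finger gene, had 50.4 kb with 1.4 kb of H3K4me3. The alpha-globin genes lay in an H3K27me3 island of 28.2 kb (chromosome 16, 152801 to 181000), in which HBM and HBA2 held H3K27me3 alone and HBA1 both, through 1 kb of H3K4me3 with a score of 14. HBA1 and HBA2 are near-identical copies, so this difference is uncertain. The beta-globin genes HBB, HBG1 and HBE1 held neither.

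Of the 15 blood, endothelial and arterial genes that held both marks, H3K4me3 was wider than H3K27me3 at 7, namely GATA2, CEBPA, MECOM, DLL4, UNC5B, ESAM and CLDN5, against 290 of all 2628 genes with both (11%). At UNC5B and ESAM the widest islands of the 2 marks did not overlap. Of 25 blood regulators, 14 (56%) held H3K4me3 alone, 6 (24%) both (GATA2, ERG, GFI1, CEBPA, MECOM and HLF), 5 (20%) neither and 0 H3K27me3 alone. Over all protein-coding genes, 57.1% held H3K4me3 alone, 13.7% both and 27.2% neither. At GATA2 (chromosome 3, minus strand) H3K4me3 ran from 128482001 to 128493800 (11.8 kb, score 1000) and H3K27me3 from 128491201 to 128493600 inside it (2.4 kb, score 12.7). That H3K27me3 island lay over the outer of 2 listed starts, at 128493201, and not within 1 kb of the inner start at 128488530, which held H3K4me3 alone. At MECOM, which encodes the stem cell factor EVI1, an H3K4me3 island of 12.4 kb bridged H3K27me3 islands of 3.4 and 2.6 kb upstream of the outermost listed start. Over its inner starts lay an H3K4me3 island of 8.2 kb with 3.6 kb of H3K27me3 inside it (score 21.3). Of these starts, that at 169146539 held both marks and that at 169147471 H3K4me3 alone. GFI1, a repressor of endothelial genes in emerging blood cells, had 7.2 kb of H3K4me3 within 13 kb of H3K27me3, and the endothelial and stem cell factor ERG had 2 kb within 8.4 kb.

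RUNX1 illustrates what the choice of window does. No island lay within 1 kb of either end of its span (chromosome 21, 34787801 to 35049302, minus strand), so it counted as holding neither mark. Inside the gene, H3K4me3 ran from 34881601 to 34891800 (10.2 kb, score 1000) over the listed start at 34888699. H3K27me3 islands ran from 34882601 to 34886600 (4 kb, score 23), from 34889401 to 34894400 (5 kb, score 23.7) and from 34896201 to 34901200 (5 kb, score 8.02). The first 2 of these overlapped H3K4me3 by 6.4 kb in all, and the start itself lay between them. Taken at that start, RUNX1 held both marks.
H3K4me3 alone was found at TAL1 (5.4 kb) and FLI1 (14.6 kb), 2 factors that specify blood and endothelium, at MYB (5.2 kb) and at BCL11A (7 kb). MEIS1 had 15 kb of H3K4me3 and a 2.4 kb H3K27me3 island inside it that began 1.48 kb from the gene's start, just outside the window.

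**Figure D2:**
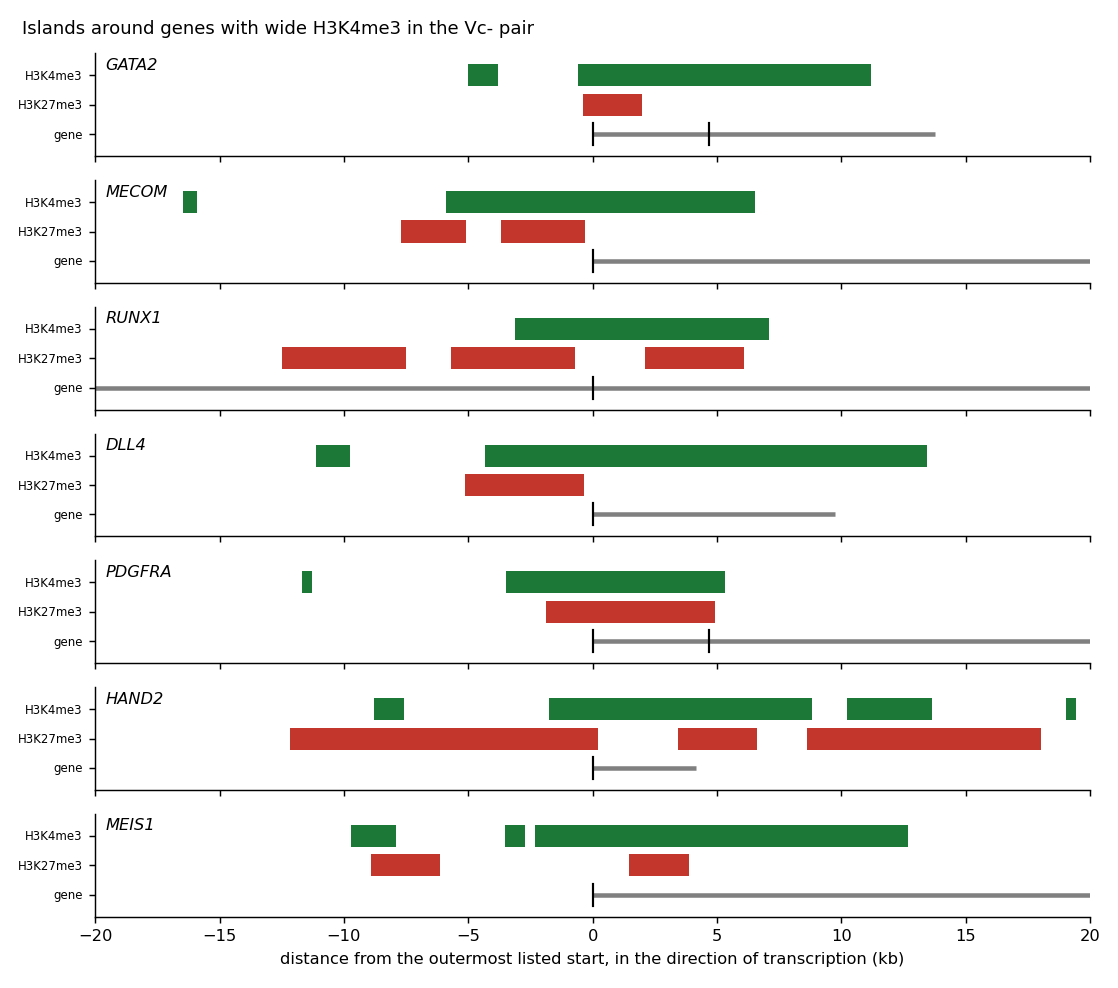
Islands of H3K4me3 (green) and H3K27me3 (red) in the Vc- pair around 7 genes, with distance in kb from the outermost listed start along the direction of transcription on the horizontal axis, the gene span in grey and listed starts as black ticks. GATA2, MECOM, RUNX1, DLL4, PDGFRA, HAND2 and MEIS1 have H3K4me3 islands of 8.8 to 17.8 kb, and H3K27me3 lies under part of each, with 2.4 kb at GATA2 and 6.8 kb at PDGFRA.

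The labelled cell type was checked against its defining genes. Of 11 endothelial markers, 8 held H3K4me3 alone, ESAM and CLDN5 held both and VWF held neither, and the widest H3K4me3 islands at the 10 marked genes ran from 1.2 to 12 kb with a median of 4.9 kb. H3K4me3 alone was also the commonest class over all protein-coding genes (57.1%), where 13.7% held both and 27.2% neither. All 7 blood cell markers, among them PTPRC, ITGA2B, SPN, CD14 and CD3E, held neither mark. Of 6 mural and mesenchymal markers, PDGFRA held both, PDGFRB neither and 4 H3K4me3 alone, and of 5 pluripotency markers POU5F1, NANOG and DPPA4 held neither, while LIN28A and ZFP42 held H3K4me3 alone in islands of 3 kb. Of 5 epithelial markers EPCAM and CDH1 held both, KRT8 and KRT18 H3K4me3 alone and CLDN4 neither, and all 4 neural markers held both. KDR, the VEGF receptor that defines endothelial precursors, had 12 kb of H3K4me3 and its nearest H3K27me3 was 420 kb away. FLT1, a second VEGF receptor, had 10 kb and TEK, the angiopoietin receptor, 6.8 kb. Chromatin marks of other cells in the culture cannot be told apart from those of endothelial cells here.

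Over the fuller endothelial list of 20 genes, 14 held H3K4me3 alone, 4 both (ESAM, CLDN5, ERG and SOX17) and 2 neither (VWF and EGFL7). The shares over all protein-coding genes were 57.1%, 13.7% and 27.2%. At CLDN5, a tight junction gene, 1.8 kb of H3K27me3 lay within 3.4 kb of H3K4me3. SOX17, a factor of arterial endothelium and endoderm, had 24 kb of H3K27me3 around 4.8 kb of H3K4me3. Of 18 arterial and Notch genes, 10 held H3K4me3 alone, among them NOTCH1, JAG1, HEY2 and EFNB2, and 7 held both. DLL4, the arterial Notch ligand, had the widest H3K4me3 island at a gene of the lists chosen by name, 17.8 kb with a score of 1000 (chromosome 15, 40925001 to 40942800), and an H3K27me3 island of 4.8 kb that ended 0.339 kb before its start. The other Notch ligand with both marks, DLL1, had the reverse, 2.8 kb of H3K4me3 within 10.6 kb of H3K27me3. CXCR4, a chemokine receptor of arterial cells, had 4.2 kb within 9 kb. UNC5B and HEYL, a netrin receptor and a Notch target, each had 2.2 kb of H3K27me3 beside 6.2 and 1.2 kb of H3K4me3. All 7 kept both marks with better-scoring islands only.

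Venous and lymphatic genes held both marks at 4 of 9, against 13.7% of all protein-coding genes. NR2F2, the venous identity factor, lay at H3K27me3 of 31.4 kb with 3.4 kb of H3K4me3, the lymphatic factor PROX1 had 5.8 and 1.6 kb, PDPN 3.8 and 0.8 kb, and FLT4 4.2 and 2.8 kb. Mural and mesenchymal genes held both at 7 of 22 and H3K4me3 alone at 10. At PDGFRA, a mesenchymal growth factor receptor, 6.8 kb of H3K27me3 (chromosome 4, 54227401 to 54234200) lay within 8.8 kb of H3K4me3 (54225801 to 54234600), the widest H3K27me3 island inside H3K4me3 at any gene. FOXC1, a mesenchymal and vascular forkhead factor, had 9.2 kb of H3K4me3 with a score of 1000 inside 31.2 kb of H3K27me3, so that both marks were wide. Cardiac factors held both at 5 of 15, with H3K4me3 inside H3K27me3 at TBX5 and not at the other 4, and at HAND2 an H3K4me3 island of 10.6 kb touched 3 H3K27me3 islands, of which the one over the start was 12.4 kb wide. At ISL1, H3K27me3 had a score of 2.29, near the lowest of the list (2.01). It lay 0.27 kb beyond a gene end, apart from H3K4me3, and ISL1 held H3K4me3 alone in the Vc+ pair. TBX1, a pharyngeal factor, held H3K27me3 alone in Vc- and both marks in Vc+.
Epithelial genes held both at 5 of 11, with median widths of 1.4 kb for H3K4me3 and 3.2 kb for H3K27me3. EPCAM, an adhesion gene, had 1.4 kb of H3K4me3 in 2 kb of H3K27me3, CLDN3, a tight junction gene, had 1 kb in 5 kb, and CDH1, the gene of E-cadherin, had 1.4 and 1.2 kb, staggered.

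**Figure D3:**
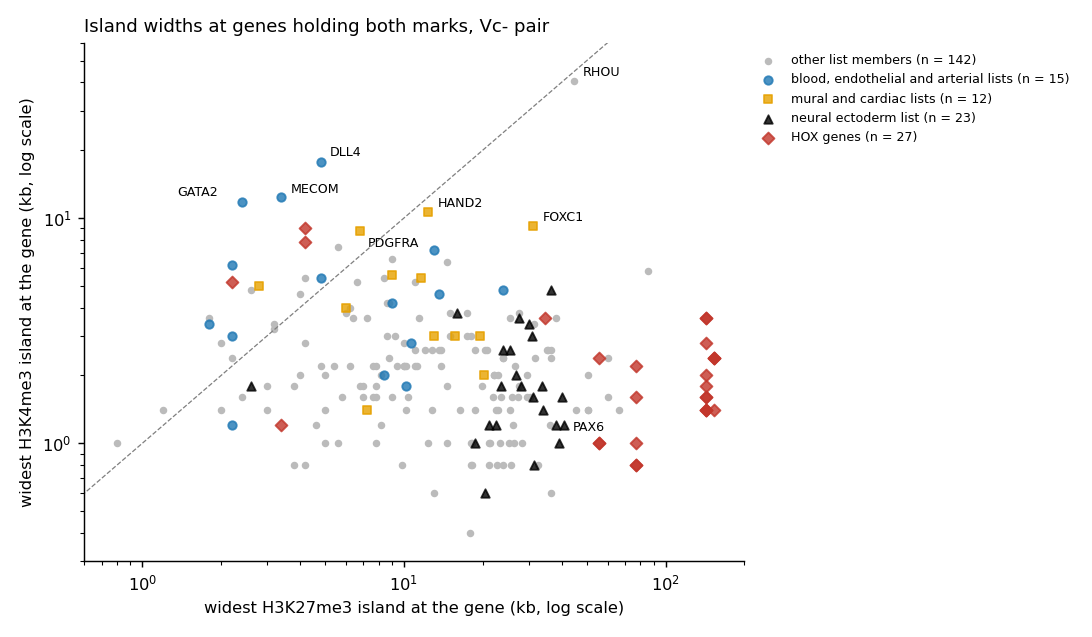
Width of the widest H3K27me3 island (horizontal axis, kb, log scale) against that of the widest H3K4me3 island (vertical axis, kb, log scale). The genes held both marks in the Vc- pair, and the dashed line marks equal width. Plotted are members of the lists by name and of the HOX, other homeobox, forkhead, T-box, GATA and SOX families. Genes of the 12 widest H3K27me3 islands, chosen by that width, are also plotted, and members of the remaining lists by symbol pattern are not. H3K4me3 is the wider mark at 7 of 15 genes of the blood, endothelial and arterial lists, at 2 of 12 mural and cardiac genes, at 3 of 27 HOX genes, at 0 of 23 neural ectoderm factors and at 10 of the 142 other genes plotted, against 11% of all genes with both marks.

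The proportion of the marks can be counted. Among genes that held both, H3K4me3 was the wider at 7 of 15 members of the blood, endothelial and arterial lists, at 2 of 12 mural and cardiac genes, at 3 of 27 HOX genes, at 0 of 23 neural ectoderm factors and at 10 of 142 other genes plotted. Those 142 leave out several lists by symbol pattern and include genes chosen for their wide H3K27me3 islands. Over all 2628 genes with both marks it was the wider at 290 (11%). The median score of H3K4me3 was 224 at the 6 blood regulators with both marks, 190 at the 7 arterial and Notch genes and 35.3 at the 23 neural ectoderm factors, against 70.4 over all genes with both. The median score of H3K27me3 was 46.9, 40.1 and 1000 in the same groups, against 39.5 over all genes with both. The lists are short, the genes were not tested, and scores are compared within each mark only.

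Genes of basic cell functions almost never held H3K27me3, which was found at 15.7% of all protein-coding genes. All 14 housekeeping genes, 75 of 77 cytosolic ribosomal protein genes, 75 of 77 mitochondrial ribosomal protein genes and 38 of 47 proteasome genes held H3K4me3 alone. Among the exceptions, MRPL3, PSMD14 and PSMD11 held both. A further list held enzymes that write or erase methylation of these 2 lysines and subunits of their complexes, such as WDR5 and ASH2L. Of its genes 14 of 15 held H3K4me3 alone, including KDM6B, KMT2A and KMT2D, and SETD1B held neither. Of 21 Polycomb genes, 13 (61.9%) held H3K4me3 alone, against 57.1% of all protein-coding genes. These included the core PRC2 genes EZH2, EED and SUZ12, and RING1, RNF2 and PCGF2, which encode subunits of Polycomb repressive complex 1. Both marks were held by 6 (28.6%, against 13.7% of all protein-coding genes), among them BMI1, CBX2, CBX7, CBX8 and PHC2 of the same complex. At CBX8 the widest H3K27me3 island was 12 kb wide and shared 1 kb with H3K4me3. At BMI1 (10 kb) and CBX2 (10.4 kb) the widest H3K27me3 island lay at the opposite gene end from the widest H3K4me3 island and did not overlap it, and CBX2 held H3K4me3 alone in the Vc+ pair.

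Signalling genes were mixed. Of 28 BMP, TGF-beta and WNT genes, 13 held both, 12 H3K4me3 alone and LEFTY2, a NODAL inhibitor, H3K27me3 alone. Among those with both, WNT1 had 23.4 kb of H3K27me3 around 1.6 kb of H3K4me3, WNT11 had 5.6 kb of H3K27me3 and a staggered H3K4me3 island of 7.4 kb, and the BMP antagonist GREM1 had 2.2 kb of H3K4me3 within 4.8 kb. BMP2, BMP4, SMAD6, SMAD7 and ID1 were among those with H3K4me3 alone. WNT ligands as a family held both at 12 of 19. Potassium channel genes held both at 46 of 93 and collagen genes at 15 of 42, against 13.7% of all protein-coding genes. Zinc finger genes of the ZNF symbols, many of which encode repressors of repeated DNA, held both at 49 of 497 (9.86%), below that share.

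A pair of gene families held little of either mark. Of 389 olfactory receptor genes 380 held neither, and of 55 keratin genes 45 did, against 27.2% of all protein-coding genes. Blood cell marker genes held neither at 14 of 22, H3K4me3 alone at 6, including CD34 (6 kb), and both at KIT and HBA1. KIT, the stem cell factor receptor, had 3.2 kb of each mark, staggered with 1.6 kb shared. Of 14 germline genes 9 held neither and MAEL both. Among 13 pluripotency genes, SOX2, PRDM14 and KLF4 held both, LIN28A, ZFP42, SALL4 and DNMT3B held H3K4me3 alone with a median score of 626, UTF1 held H3K27me3 alone and 5 held neither.

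**Figure D4:**
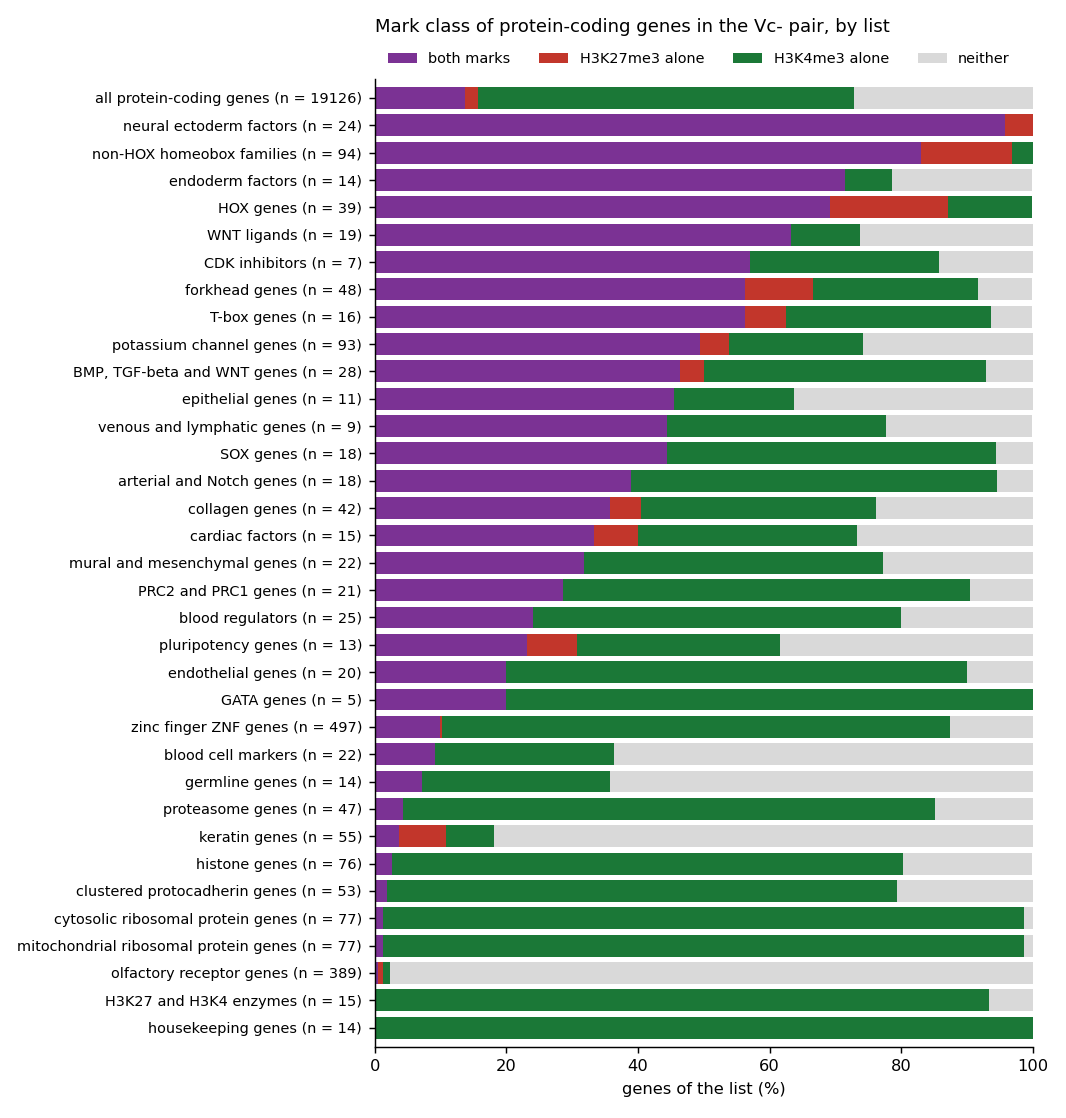
Share of the protein-coding genes of each list (horizontal axis, %) that held both marks, H3K27me3 alone, H3K4me3 alone or neither near a gene end (up to 1 kb away) in the Vc- pair, with the number of genes in brackets and all protein-coding genes at the top. Neural ectoderm factors stand at 95.8% with both marks, all protein-coding genes at 13.7% and housekeeping genes at 0%.

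For 15101 genes (79%) the RefSeq promoter table gives a start and strand, and the outermost start was used to place the marks along the gene. Both marks were found within 1 kb of it at 1773 genes (11.7%), H3K4me3 alone at 9155 (60.6%), H3K27me3 alone at 243 (1.61%) and neither at 3930 (26%). At genes with both, an H3K4me3 island lay over the start in 90% of cases and reached a median of 0.61 kb upstream and 1.04 kb downstream. H3K27me3 lay over it in 77% and reached 2.21 kb upstream and 2.86 kb downstream. H3K27me3 covered 75.9% of these genes 0.8 kb before the start, 74.1% at 0.4 kb before it and 84.2% at 0.8 kb after it. The dip before the start is small. The class also admits islands that only reach the edge of the 1 kb window, and their part in this shape was not tested. H3K4me3 peaked at 91.1% of genes 0.2 kb after the start. At 2 kb before the start, H3K27me3 still covered 55.1% and H3K4me3 5.87%. Genes with H3K4me3 alone had islands that reached further than those with both, 0.85 kb upstream and 1.33 kb downstream.

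**Figure D5:**
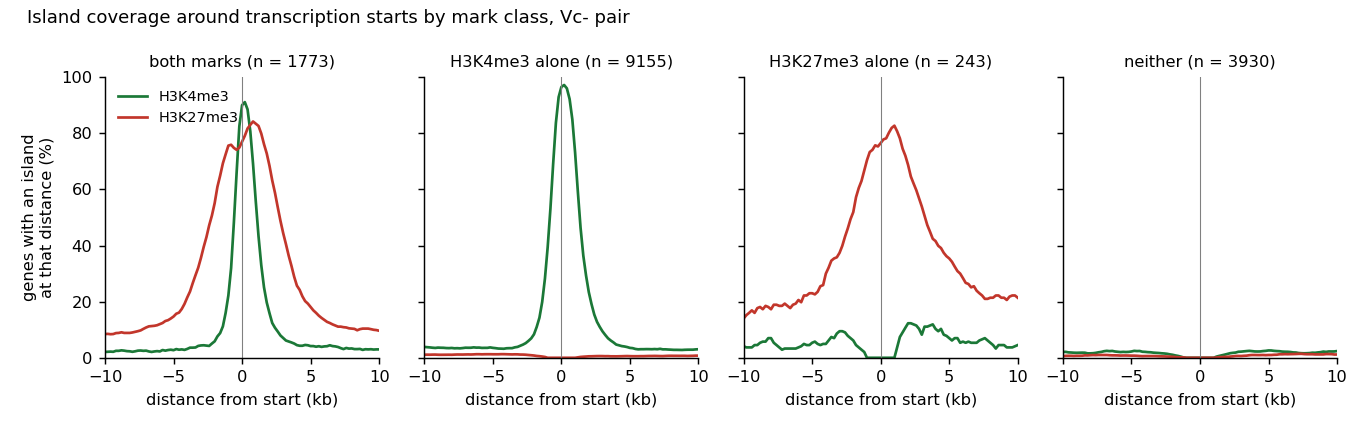
Share of genes with an H3K4me3 (green) or H3K27me3 (red) island at each distance from the outermost listed start (horizontal axis, kb, positive downstream), by class within 1 kb of that start in the Vc- pair. At the 1773 genes with both marks H3K27me3 is the broader profile, with 55.1% at 2 kb before the start against 5.87% for H3K4me3, and the zero of the absent mark within 1 kb is set by the definition of the classes.

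CG counts of promoters with both marks and with H3K4me3 alone were alike. Promoters with H3K27me3 alone had lower counts with overlapping quartiles, and those with neither stood apart. In the 300 bases from 250 before to 50 after the start, promoters with both marks had a median of 28 CG dinucleotides (quartiles 20 and 37) and those with H3K4me3 alone 27 (quartiles 20 and 35). Promoters with H3K27me3 alone had 16 (quartiles 8 and 25) and those with neither 4 (quartiles 2 and 7). A CpG-rich promoter, here with an observed to expected CpG ratio above 0.6 and over 50% G and C, was found in 82.2% of promoters with both marks, 84.5% with H3K4me3 alone, 49.4% with H3K27me3 alone and 6.92% with neither, against 63.5% of all. From 0 to 4 CG up to 40 or more, the share of promoters with both marks went from 1.39% to 20.1%. The letters TATAAA on the gene's strand in the 50 bases before the start were in 3.27%, 1.61%, 7% and 9.69% of the 4 classes in the same order, and in 3.99% of all promoters. A match to these letters is a description and not a binding site.

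MicroRNA genes repeated the classes at a lower rate. Of 1461 hairpins, 49 (3.35%) held both marks within 1 kb, 201 (13.8%) H3K4me3 alone, 19 (1.3%) H3K27me3 alone and 1192 neither. The examples were chosen after their values were seen. The 3 loci of miR-9, a neuronal microRNA, all lay in wide H3K27me3: MIR9-1 in 25.4 kb with 1.8 kb of H3K4me3, MIR9-3 in 29.6 kb with 0.8 kb and MIR9-2 in 40.8 kb with none. In the HOX clusters, MIR196A2 and MIR196B held H3K27me3 alone, MIR196A1 in HOXB held H3K4me3 alone, and MIR10A and MIR10B held both. The endothelial miR-126 held H3K4me3 alone, with the nearest H3K27me3 173 kb away. Mature sequences from the RefSeq microRNA table are shown 5′ to 3′ with the seed, bases 2 to 8, in capitals, to show that the 3 loci of miR-196 share 1 seed although their marks differ.
miR-196a-5p (MIR196A1 and MIR196A2): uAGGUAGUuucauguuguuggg
miR-196b-5p (MIR196B): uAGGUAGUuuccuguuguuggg
miR-9-5p (MIR9-1, MIR9-2 and MIR9-3): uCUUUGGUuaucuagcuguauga
miR-126-3p (MIR126): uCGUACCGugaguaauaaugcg
Long non-coding RNA genes, 17795 on these chromosomes, held both marks at 5.31%, H3K4me3 alone at 19.3%, H3K27me3 alone at 1.79% and neither at 73.5%.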

How the data were processed

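Islands of H3K4me3 and H3K27me3 were deposited by the authors as 1 list per library. The submitters' processing notes name 3 tools (Bowtie2, SICER, deepTools) and 2 builds (hg38, GRCh38), with no role, setting or version. The deposited score is read from its values, 2 to 309 and then 1000, as −log10 of a false discovery rate. Widths are multiples of 200 bp. Library depth is not given in the sources used here.

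Ends were treated as inclusive and positions are counted from 1. A gene held a mark when an island overlapped, by at least 1 bp, a window reaching 1 kb to each side of an end of its span in the RefSeq table of GRCh38.p14. Windows at starts were the alternative, because starts were matched for 79.0% of genes which is under the 80% required. Named genes were GATA2 and RUNX1, genes of the 12 widest islands of each class, the 5 widest islands of each position class, all members of the blood, endothelial and arterial lists, and early members of the other lists. HOX and microRNA genes, the exceptions within lists and other genes named beside these were chosen after their values were seen. The members and lists, 17 by name and 17 by symbol pattern, were chosen with earlier results of these data known. The homeobox pattern was corrected after the files were seen, to drop symbols of other families. No comparison was tested. Alternatives covered score cut-offs, island number, joining, regions, windows and overlap rules. Code was checked against bedtools 2.31.1, and on planted islands 398 of 400 genes were given the right class over 19126 genes. Python 3.11.15, numpy 2.4.6, pandas 2.3.3, scipy 1.17.1 and matplotlib 3.10.9 were used.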

Additional observations from a re-analysis of the deposited data

How the results depend on the processing

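No paired analysis was possible because each mark and condition had 1 library. Keeping the islands of each list at or above its median score changed most counts: 1185 H3K4me3 islands and 1191 H3K27me3 islands touched the other mark, 12669 windows were shared, 1086 genes held both marks and 1585 H3K27me3 alone. Cutting H3K4me3 by score to as many islands as H3K27me3 gave 891 and 936 touching islands, 9232 shared windows, 889 genes with both marks and 2112 with H3K27me3 alone. Both alternatives remove low-scoring H3K4me3 islands by construction. A cover of at least 50% left 922 touching H3K27me3 islands. A window at the outermost start left 243 genes with H3K27me3 alone, of fewer genes tested. Long non-coding RNA genes numbered 945 with both marks and 3443 with H3K4me3 alone. Joining islands across gaps of up to 2 kb gave median widths of 1.6 kb for touching H3K4me3 and 4.4 kb for touching H3K27me3 islands. The other 46 of 62 recomputed values stayed within 1.5 times the main count, within the 95% interval of the main median width or within the quartiles of CG count. Of 681 recomputed counts for single lists and for wide islands, 152 moved by over 1.5 times, 49 of them by more than 5 genes. With islands left out that lay up to 5 Mb from the longest stretch without genes, 9 of 18 H3K4me3 islands over 10 kb touched H3K27me3, an alternative added after the data were seen. With 1 library per mark and no depth, weak islands that would not be called again cannot be told from those that would.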
